A study of Marchantia polymorpha subsp. ruderalis with 24 samples.

Results

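MpKOL3 (identifier Mp2g01940) is 1 gene of the 20574 in a gene count table from the liverwort Marchantia polymorpha subsp. ruderalis. Its row was taken by identifier, and all 8 sampling times were used. It was picked for attention because an earlier analysis of the same libraries had placed it among the 10 widest 24 h rhythms of genes with a symbol, a mean of at least 10 CPM (counts scaled to each library's size) and like profiles on both days. Its rise and fall over the day is therefore given as a description, with no p-value. The samples were young thallus, the flat haploid plant body, of the accession Takaragaike (Tak) -1, a laboratory accession. Plants grew from gemmae, clonal propagules of the thallus, on agar in 12 h light and 12 h dark at 20 °C and were then moved to continuous light. Every group shares this history and differs only in the hours since the move, which were 24, 30, 36, 42, 48, 54, 60 and 66 h, with 3 libraries at each. The first 4 times are called the first day and the last 4 the second day. The labels name the tissue young thallus, while the extraction text speaks of frozen gemmae.

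The symbol stands for a kaurene oxidase-like gene of the cytochrome P450 superfamily, a large class of haem enzymes. In flowering plants ent-kaurene oxidase turns the diterpene ent-kaurene into ent-kaurenoic acid, and ent-kaurenoic acid oxidase takes that product on towards gibberellins, hormones of growth and light responses. Liverworts lack the gibberellin receptor of flowering plants, but M. polymorpha has a route to gibberellin-related compounds, which involves MpKOL1 and MpKAOL1 and bears on its response to far-red light. MpKOL3 is a relative of MpKOL1, and the substrate of its product is not given in the sources used here.

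The libraries held 14929708 to 59194999 counts each. MpKOL3 was read from 131 counts in replicate 2 of 24 h (exact 95% Poisson interval 109.5 to 155.4) up to 1860 counts in replicate 1 of 66 h (1776 to 1946). These intervals cover counting error only. A single gene, MpVg01240, took 7.22%, 4.44% and 4.27% of the counts in replicate 3 of 24, 30 and 66 h, and at most 2.39% in the other 21 libraries. MpRBCS, for the small subunit of the carbon-fixing enzyme Rubisco, lay between 137 and 343 CPM in all libraries. Of 4 genes in the table listed for sexual organs or sperm, MpPRM and MpLC7 had at most 3 and 5 counts in any library. MpDUO1 had at most 0.889 CPM, and MpRKD had 149 to 196 CPM.

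MpKOL3 was lowest at 24 and 48 h and highest at 36 and 60 h. At 24 h the 3 libraries had 7.22, 6.51 and 8.89 CPM of MpKOL3, a mean of 7.54 ± 1.22 CPM (SD, n = 3). In whole thallus, fewer cells expressing a gene and less RNA of it per cell cannot be told apart. At 30 h they had 19.6, 24.8 and 21.3 CPM (21.9 ± 2.61). At 36 h they had 56.3, 41.6 and 44.3 CPM (47.4 ± 7.83). The groups of 24, 30 and 36 h did not overlap, so every library at 36 h lay above every library of the earlier times. At 42 h the values were 19.4, 38.3 and 24.7 CPM (27.5 ± 9.75), the widest spread of any time. Replicate 2 was the high one, and the other two lay within or near the range of 30 h.

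The second day had the same order of times. At 48 h MpKOL3 stood at 11.8, 12.8 and 16.9 CPM (13.8 ± 2.68). At 54 h it stood at 25.3, 24.3 and 19.2 CPM (22.9 ± 3.25), and at 60 h at 49.6, 61.2 and 44.1 CPM (51.6 ± 8.76). Again these 3 times did not overlap. At 66 h it was back at 31.4, 31.1 and 27.3 CPM (30.0 ± 2.29), below all 3 libraries of 60 h and above all 3 of 54 h.

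**Figure D1:**
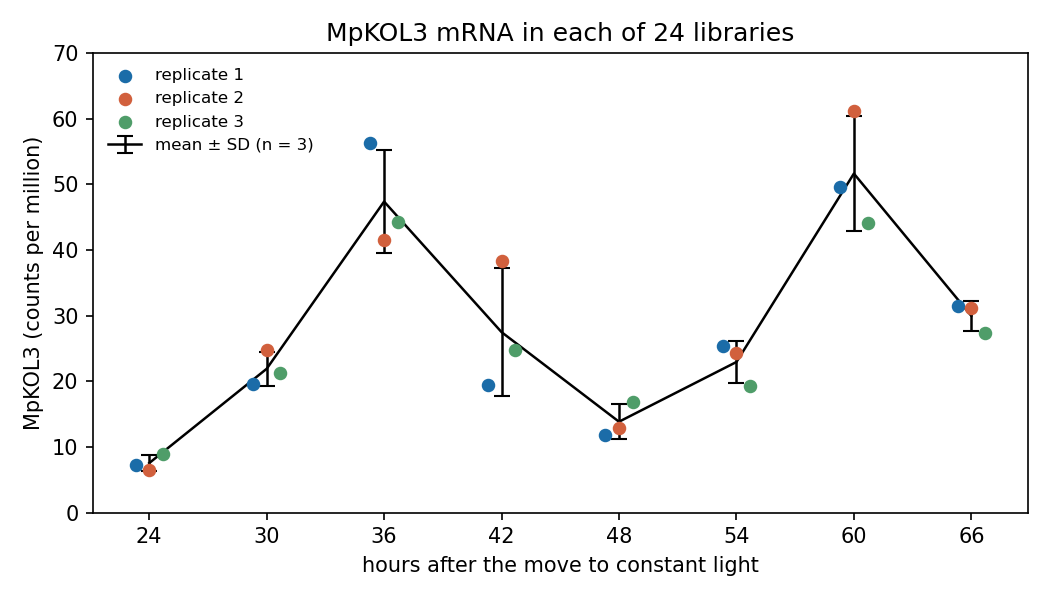
MpKOL3 in CPM (y) at each time after the move to constant light (x), with 1 point per library, coloured by replicate number, and the mean ± SD of 3 libraries in black. The trough means of 7.54 and 13.8 CPM lie at 24 and 48 h and the peak means of 47.4 and 51.6 CPM at 36 and 60 h.

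Taken over both days, the 6 libraries of 36 and 60 h had 41.6 to 61.2 CPM of MpKOL3. The other 18 libraries had at most 38.3 CPM. The 6 libraries of 24 and 48 h had 6.51 to 16.9 CPM, while all 18 others had at least 19.2 CPM. Ordered by mean, the times ran 24, 48, 30, 54, 42, 66, 36 and 60 h. In that order the ranges of 24 and 48 h were apart, as were those of 48 and 30 h and of 66 and 36 h. The neighbours 30 and 54 h, 54 and 42 h, 42 and 66 h, and 36 and 60 h overlapped and were not separated by their spread.

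A 24 h cosine fitted beside a linear change in hours gave MpKOL3 a difference of 2.102 ± 0.173 (SE) on the log2 scale between peak and trough, which is 4.29 fold. The fitted peak fell at 12.4 ± 0.30 h after the move, modulo 24 h. The move's own hour in the light-dark cycle is not given in the labels, so this is not a clock time. The same test across all genes called 2700 of 14414 (18.7%) rhythmic at an adjusted p under 0.05 with edgeR, a background from which nothing is read for a gene chosen by that test. Times 12 h apart differed by 0.39 ± 0.20 (SE, log2) for 66 minus 54 h and by 0.33 ± 0.20 for 42 minus 30 h, and by 1.90 ± 0.21 for 60 minus 48 h and 2.64 ± 0.21 for 36 minus 24 h. Over all genes these contrasts called 2.16%, 5.52%, 4.34% and 10.4% of genes as higher at the later time.

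MpKOL3 was somewhat more abundant on the second day. Its mean was 29.6 CPM over the 12 libraries of 48 to 66 h and 26.1 CPM over the 12 of 24 to 42 h. With each phase of the day in both sets, the difference was 0.30 ± 0.10 (SE) on the log2 scale, 1.23 fold (edgeR adjusted p = 0.0258, with 18.3% of all genes called higher on the second day and 16.3% lower). The call was lost without replicate 3 of 48 h (0.25, adjusted p = 0.0585) and without replicate 2 of 60 h (0.26, adjusted p = 0.0536). The mean of the later time was the higher one at all 4 phases. Of the single comparisons 24 h apart, 48 against 24 h was called, with 13.8 ± 2.68 and 7.54 ± 1.22 CPM (SD, n = 3 each) and a log2 difference of 0.87 ± 0.21 (1.83 fold, edgeR adjusted p = 0.00701), where 8.26% of genes were called higher. Its 3 libraries at 48 h all exceeded the 3 at 24 h.

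The other 3 phases gave no call, and their intervals hold changes in either direction. For 54 minus 30 h the log2 difference was 0.07 ± 0.20 (SE, 95% interval -0.35 to 0.49, edgeR adjusted p = 0.873, with 8.55% of genes called). For 60 minus 36 h it was 0.13 ± 0.20 (-0.29 to 0.54, adjusted p = 0.761, with 4.83% called higher), and for 66 minus 42 h 0.12 ± 0.20 (-0.30 to 0.54, adjusted p = 0.824, with 1.01% called higher). Like profiles on both days were part of how the gene was chosen, and the correlation of its 4 time means (log2) between the days was 0.975. The distance from lowest to highest time mean was 3.73 fold on the second day and 6.23 fold on the first. The rise of 60 over 48 h was smaller than that of 36 over 24 h by 0.74 ± 0.29 (SE, log2), which did not pass the threshold over all genes (edgeR adjusted p = 0.26, with 1.8% of genes called).

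MpKOL2 (Mp2g01950), also a kaurene oxidase-like gene, has the next identifier after MpKOL3 and followed it in the reference gene table too. Its level moved in the same sense but far less. MpKOL2 averaged 9.79 ± 0.34, 11.0 ± 1.26, 12.8 ± 1.84 and 12.5 ± 2.70 CPM at 24, 30, 36 and 42 h (SD, n = 3 each). On the second day it averaged 9.81 ± 0.75, 13.4 ± 1.92, 15.6 ± 1.06 and 12.1 ± 1.76 CPM at 48, 54, 60 and 66 h. The times of highest and lowest mean thus matched those of MpKOL3 on both days, but 36 and 42 h were not separated by their spread in MpKOL2. The fitted rhythm of MpKOL2 was 0.46 ± 0.12 (SE, log2; 1.37 fold) and peaked 11.6 ± 0.99 h after the move (edgeR adjusted p = 0.0183). This call was lost with a day term added to the linear one (adjusted p = 0.114), with a 26 h period (0.0537), and without replicate 3 of 36 h (0.0637) or replicate 3 of 48 h (0.0508).

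Between opposite phases MpKOL2 was higher at 60 than at 48 h by 0.67 ± 0.16 (SE, log2; edgeR adjusted p = 0.0111, with 4.34% of genes called higher), though not without replicate 3 of 48 h (0.61, adjusted p = 0.0648) or replicate 1 of 60 h (0.61, adjusted p = 0.0585). At 36 against 24 h its difference was 0.38 ± 0.16 (adjusted p = 0.0973). The second day minus the first gave 0.13 ± 0.08 for MpKOL2 (adjusted p = 0.207). Over the 24 libraries log2 CPM of MpKOL2 and MpKOL3 correlated at 0.733. The libraries are shared between the genes, and how alike their sequences are is not known here, so some reads of one may have been counted for the other. The part of such sharing in the rhythm of MpKOL2 was not tested.

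Both genes are counted in the same library, so their ratio does not depend on library scaling. From 24 to 42 h MpKOL3 made up 43.3 ± 3.40%, 66.6 ± 3.05%, 78.6 ± 3.53% and 68.2 ± 2.95% of the counts of the pair (SD, n = 3 each). From 48 to 66 h its share was 58.2 ± 6.09%, 63.2 ± 2.89%, 76.6 ± 3.17% and 71.3 ± 3.66%. At 24 h the share was at most 46.7%, under every library of the other times, whose lowest was 54.4% at 48 h. The spread at 42 h, 65.3 to 71.2%, lay within the span of spreads of the other times, and replicate 2 of 42 h was the highest of the 3 in both genes.

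**Figure D2:**
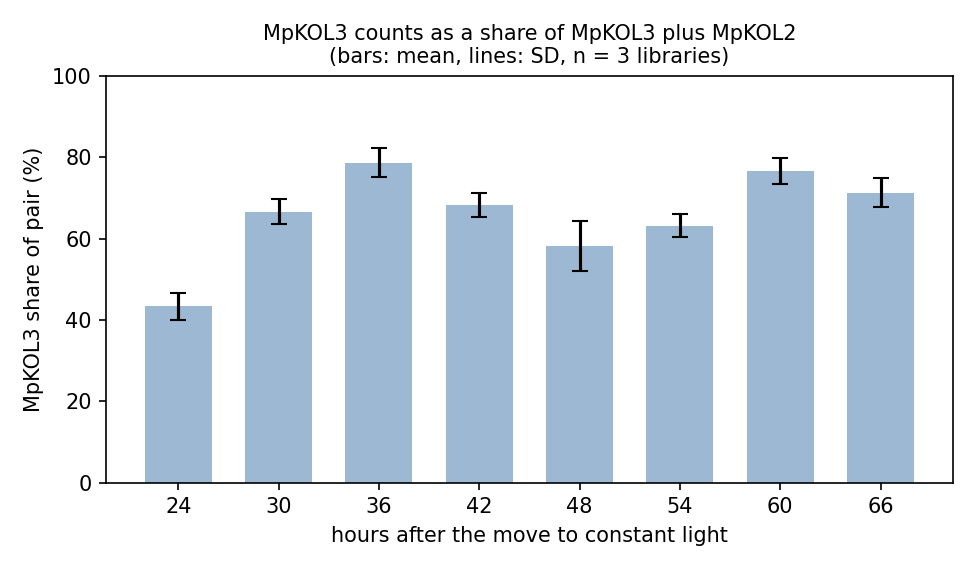
Counts of MpKOL3 as a percentage of the counts of MpKOL3 plus MpKOL2 (y) by hours after the move (x). Bars are means and lines SD of 3 libraries; the share is lowest at 24 h (43.3%) and highest at 36 h (78.6%) and 60 h (76.6%).

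The tested genes on the other side and beyond had correlations near 0 with MpKOL3. Of the 3 identifiers on each side, MpCupin14 (Mp2g01910) and Mp2g01970 had at most 6 and 8 counts in any library and were not tested. MpCupin16 (Mp2g01930), the identifier just before MpKOL3, correlated with it at -0.0676 over the 24 libraries and had a fitted rhythm of 0.15 ± 0.16 (SE, log2; edgeR adjusted p = 0.831). MpCupin15 (Mp2g01920), at a mean of 0.378 CPM, correlated at -0.0786 (0.33 ± 0.53, adjusted p = 0.912). Mp2g01960, just after MpKOL2, correlated at -0.0913 and had the flattest profile of them (0.03 ± 0.07, adjusted p = 0.965), with time means of 46.1 to 49.6 CPM.

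Among the other kaurene oxidase-like and kaurenoic acid oxidase-like genes, MpKOL1 and MpKAOL1 were higher late on the first day. These and MpKAOL2 were lower on the second day. The list for gibberellin precursors, matched by symbol, held MpKOL1, MpKOL2, MpKAOL1, MpKAOL2 and MpKAOL3 beside MpKOL3, and all 5 passed the filter on low counts. Of the 5, 4 were called rhythmic by edgeR, all but MpKAOL3, against 18.7% of all genes, and their median fitted size was 0.68 on the log2 scale against 0.26 over all genes. With a day term in place of the linear term 2 of the 5 were called (29.6% of all genes), and with no drift term also 2 (20.9% of all genes). With both drift terms it was 0 of 5 by edgeR, where 7.0% of all genes were called, and 2 at an unadjusted p under 0.05 (MpKOL2 and MpKAOL3). The fitted size of MpKOL3 stayed between 1.93 and 2.26 under these 3 models.

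MpKOL1 (Mp3g18320), which takes part in making gibberellin-related compounds in M. polymorpha, averaged 18.01 ± 1.72, 19.2 ± 2.64, 26.2 ± 3.66 and 28.0 ± 1.70 CPM at 24, 30, 36 and 42 h (SD, n = 3 each). On the second day it stayed at 15.9 ± 0.92, 16.5 ± 2.55, 16.4 ± 2.16 and 14.4 ± 0.31 CPM at 48, 54, 60 and 66 h. No library of 36 or 42 h was under 22.8 CPM of MpKOL1, and none of the 18 others was over 22.2 CPM. Its fitted peak lay at 14.6 ± 0.74 h with 1.60 fold (edgeR adjusted p = 0.0032), but the call was lost with no drift term (adjusted p = 0.259), with a day term (0.101) and with both terms (0.824). Over the first day MpKOL1 was higher at 36 than at 24 h by 0.54 ± 0.13 (SE, log2; adjusted p = 0.00399, with 10.4% of genes called higher) and at 42 than at 30 h by 0.55 ± 0.13 (adjusted p = 0.00753, with 5.52% called higher). The second of these was lost without replicate 3 of 30 h (adjusted p = 0.0502) and without the 3 libraries rich in MpVg01240 (0.0546).

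MpKAOL1 (Mp4g23680), a kaurenoic acid oxidase-like gene named for the following step, had a profile of the same kind. It averaged 6.35 ± 0.55, 6.98 ± 0.50, 11.7 ± 1.24 and 12.8 ± 2.53 CPM from 24 to 42 h and 6.41 ± 0.37, 5.96 ± 0.09, 7.51 ± 1.73 and 7.12 ± 0.95 CPM from 48 to 66 h (SD, n = 3 each). None of the 6 libraries of 36 or 42 h was under 10.7 CPM, and none of the 18 others was over 9.49 CPM. Its fitted rhythm was 2.12 fold and peaked 15.1 ± 0.52 h after the move (edgeR adjusted p = 6.72e-05), and with both drift terms the adjusted p was 0.405. First-day differences were 0.88 ± 0.17 (SE, log2) for 36 minus 24 h (adjusted p = 0.000468) and 0.87 ± 0.17 for 42 minus 30 h (adjusted p = 0.00131). The second-day differences of MpKAOL1 were 0.23 ± 0.17 for 60 minus 48 h (adjusted p = 0.498) and 0.25 ± 0.17 for 66 minus 54 h (adjusted p = 0.439).

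MpKAOL2 (Mp1g25410), a relative of MpKAOL1, ran from 3.62 ± 0.57 CPM at 24 h through 4.57 ± 0.75 and 5.88 ± 0.61 to 7.25 ± 2.21 CPM at 42 h, and lay between 2.76 and 3.52 CPM in the 4 time means of the second day. Its fitted rhythm of 1.02 ± 0.25 (SE, log2) peaked at 15.5 h (edgeR adjusted p = 0.00893), and the call was lost with no drift term (adjusted p = 0.229), with a day term (0.114), with both (0.87) and with a 22 h period (0.0716). Its first-day differences were not called, at 0.70 ± 0.28 for 36 minus 24 h (adjusted p = 0.0814) and 0.67 ± 0.27 for 42 minus 30 h (adjusted p = 0.124). MpKAOL3 (Mp2g10420) had time means of 2.09 to 3.72 CPM and a fitted rhythm of 0.42 ± 0.18 (adjusted p = 0.207). The highest mean of MpKAOL3 on each day fell at 36 and 60 h, as in MpKOL3. Its lowest fell at 42 and 66 h, unlike those of MpKOL3 at 24 and 48 h.

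**Figure D3:**
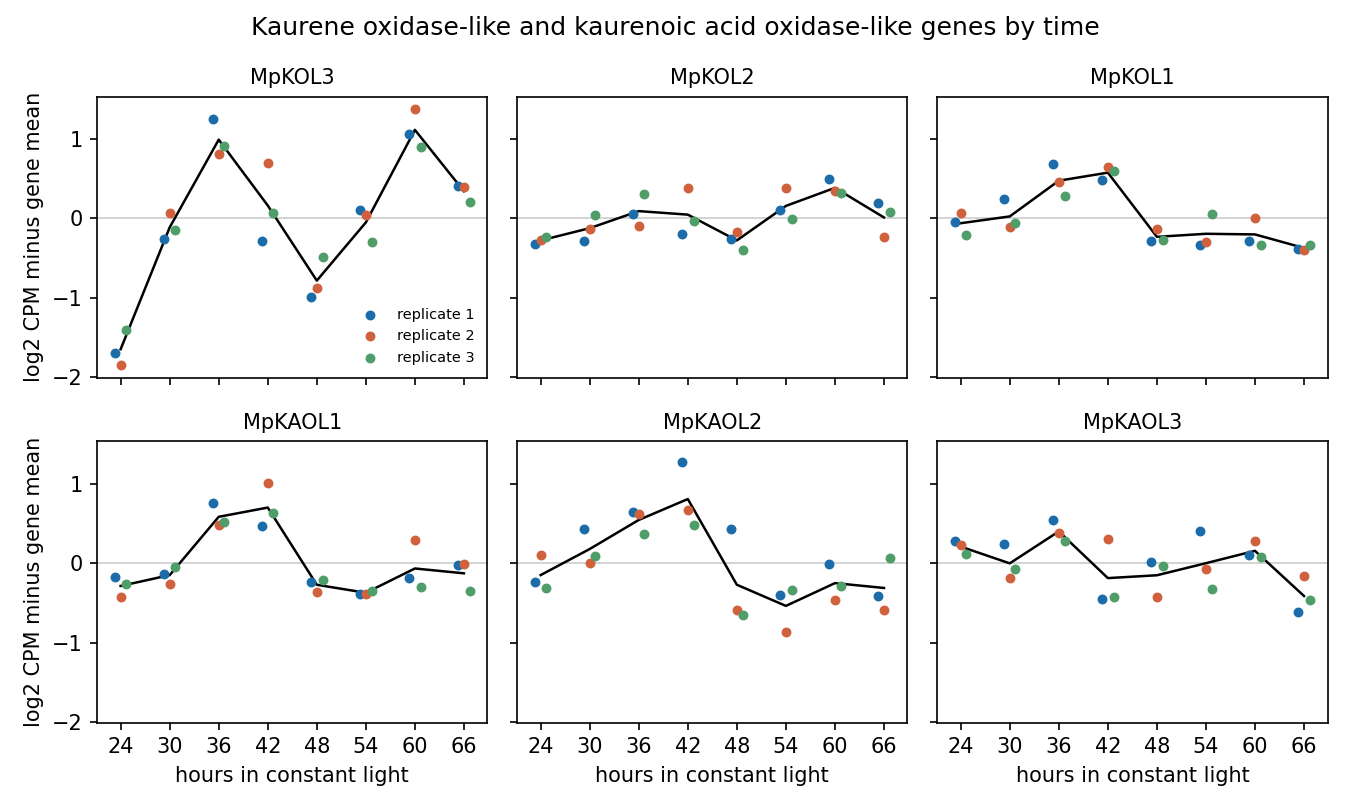
Log2 CPM minus each gene's own mean over the 24 libraries (y) against hours in constant light (x) for MpKOL3, MpKOL2, MpKOL1, MpKAOL1, MpKAOL2 and MpKAOL3; points are libraries by replicate number and lines join time means. MpKOL3 peaks at 36 and 60 h, whereas MpKOL1, MpKAOL1 and MpKAOL2 have their highest means at 42 h and none as high on the second day.

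Averaged over the 4 phases, MpKOL3 was higher on the second day while 3 of the 5 listed relatives were lower, with no test between genes. At 48 against 24 h, the only phase called for MpKOL3, these 3 were not called (edgeR adjusted p at least 0.413). Their log2 differences there were -0.17 for MpKOL1, 0.01 for MpKAOL1 and -0.04 for MpKAOL2. At 60 against 36 h and at 66 against 42 h MpKOL3 was not called. MpKOL1 fell by 0.51 ± 0.07 (SE, log2; edgeR adjusted p = 7.21e-06), MpKAOL1 by 0.42 ± 0.08 (adjusted p = 0.000461) and MpKAOL2 by 0.68 ± 0.14 (adjusted p = 0.000766) on the second day. The tests called 16.3% of all genes lower on the second day. MpKAOL3 differed by -0.22 ± 0.12 (adjusted p = 0.168). These falls held in each of the 24 fits that left out 1 library.

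By phase, the estimated falls were widest at the last of the 4, with no test between phases. At 66 against 42 h MpKOL1 was lower by a log2 difference of -0.95 ± 0.13 (SE; edgeR adjusted p = 0.000513), MpKAOL1 by -0.85 ± 0.16 (adjusted p = 0.00602) and MpKAOL2 by -1.14 ± 0.28 (adjusted p = 0.0263), where 1.78% of genes were called lower. The call of MpKAOL2 was lost without replicate 1 of 42 h (adjusted p = 0.177), replicate 1 of 66 h (0.111) or replicate 2 of 66 h (0.106). At 60 against 36 h MpKOL1 differed by -0.68 ± 0.13 (adjusted p = 0.00375, with 3.66% of genes called lower) and MpKAOL1 by -0.63 ± 0.17 (adjusted p = 0.0217). This call of MpKAOL1 was lost without replicate 1 of 36 h (adjusted p = 0.0861), replicate 2 of 36 h (0.0545), replicate 1 of 60 h (0.104) or replicate 3 of 60 h (0.0666). MpKAOL2 differed there by -0.80 ± 0.28 (adjusted p = 0.0806), but was called by DESeq2 (adjusted p = 0.0456) and without replicate 1 of 48 h (0.041).

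Whether the late-day rise itself differed between the days was tested too. For MpKOL1 the difference of 66 minus 54 h was below that of 42 minus 30 h by 0.74 ± 0.18 (SE, log2), which missed the threshold with edgeR (adjusted p = 0.0744, with 0.479% of genes called) and passed it with DESeq2 (0.0134) and limma-voom (0.0481). For the other listed relatives edgeR's adjusted p of this test was at least 0.225.

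**Figure D4:**
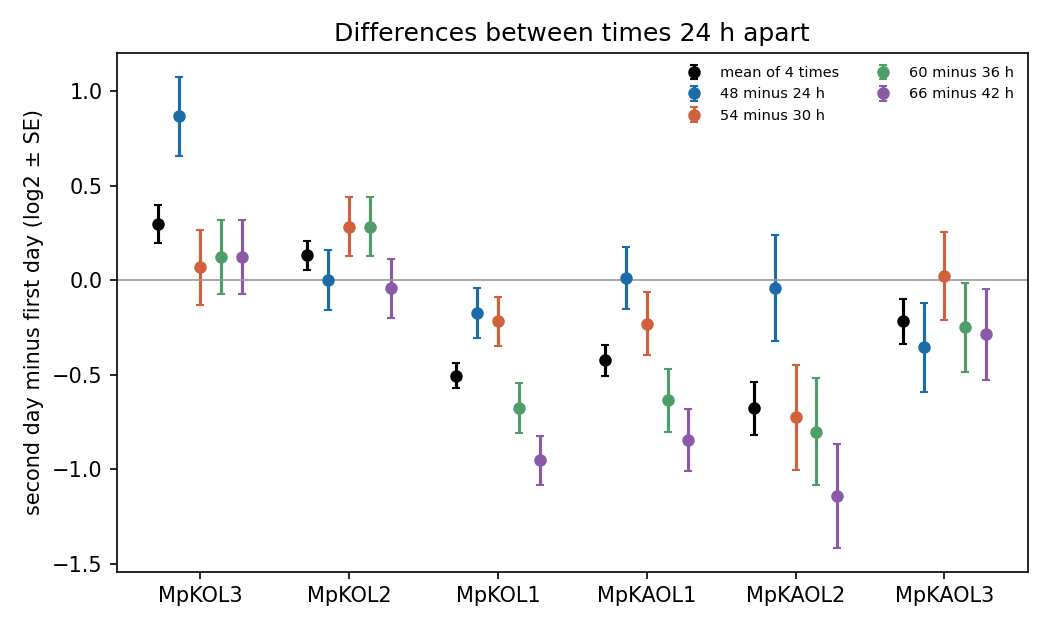
Log2 difference of the second day minus the first (y, ± SE) for each gene (x), as the mean over 4 phases in black and for each pair of times 24 h apart in colour. MpKOL3 is highest at 48 minus 24 h (0.87), while MpKOL1 (-0.95), MpKAOL1 (-0.85) and MpKAOL2 (-1.14) are lowest at 66 minus 42 h.

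Lists for isoprenoid supply and for far-red light and DELLA were also looked at. MpKOL3 was chosen for its wide rhythm, so a narrower one in these genes is no result. A link between them and MpKOL3 was not tested. The list for isoprenoid supply, the plastid pathway that makes the building blocks of diterpenes, had 9 tested genes, of which 3 were called rhythmic (18.7% of all genes), with a median size of 0.23 (log2) against 0.26 over all genes. The called genes, named here after their values were seen, were MpDXS1 (0.38 ± 0.09, SE, log2; edgeR adjusted p = 0.0066) and MpDXR1 (1.22 fold, adjusted p = 0.00156), of its first steps, and MpMCT (1.18 fold, adjusted p = 0.0349). Only 16 of the 24 fits that left out 1 library called MpMCT. On the second day MpMDS was called higher (0.195, log2; edgeR adjusted p = 0.00358). MpDXS2 (-0.31, adjusted p = 0.00512), MpDXR1 (-0.188, 0.000301) and MpDXR2 (-0.374, 0.0383) were called lower. That is 44.4% of the list, where 34.6% of all genes were called between the days, and the list was not tested as a set. The list for far-red light and DELLA held 3 genes, of which MpBHLH6, named after its values were seen, was called rhythmic (1.48 fold, peak at 9.85 h, edgeR adjusted p = 0.00253) and higher on the second day (0.27 ± 0.08, SE, log2; adjusted p = 0.0143). MpDELLA, of the same list and likewise named afterwards, for a growth regulator that gibberellins remove in flowering plants, had 10.9 to 24.7 CPM and was not called rhythmic (0.29 ± 0.12, SE, log2; edgeR adjusted p = 0.223).

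MpKOL3 had the widest fitted rhythm of the 96 tested cytochrome P450 genes with a symbol, which describes the choice of the gene and is no test. Of the 95 others (134 in the table), 23 were called rhythmic by edgeR (24.2%, against 18.7% of all genes), and their median size was 0.42 (log2) against 0.26. These 95 include the 5 listed relatives, of which 4 were already counted as called above. Whether the list as a whole differed from all genes was not tested. With both drift terms 8 of the 95 were called, beside 7.0% of all genes, and with a 22 h period 15, beside 11.9% of all genes. The widest of the called ones were MpCYP707A (Mp2g25940), of a family that breaks down abscisic acid in flowering plants, at 1.66 ± 0.26 (SE, log2; adjusted p = 0.000114), MpCYP813-like1 (Mp3g03400) at 1.65 ± 0.29 (adjusted p = 0.000411) and MpCYP827A1 (Mp5g12720) at 1.54 ± 0.19 (adjusted p = 6.98e-06). MpCYP707A and MpCYP813-like1 averaged only 2.5 and 2.02 CPM, and MpCYP827A1 averaged 58.4 CPM. Their fitted peaks lay at 11.0, 6.02 and 1.49 h, with no test against that of MpKOL3. Of the 23 called, 10 peaked within 3 h of 12 h (43.5%, against 35% of all rhythmic genes).

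Many genes had profiles close to that of MpKOL3. Likeness was measured as Pearson's correlation of log2 CPM over the 24 libraries, among 9384 tested genes with a mean of 10 CPM or more. The median was 0.00659, 282 genes reached 0.8 and 43 reached 0.9, and 127 lay at or below -0.8. These are descriptions over libraries that all genes share. By the same measure MpKOL2 stood at 0.733, MpKAOL1 at 0.515, MpKOL1 at 0.209, MpKAOL3 at 0.165 and MpKAOL2 at 0.134, of which the 3 MpKAOL genes lay under that mean. The 6 highest were Mp1g14180 (0.962), MpEXL3 (Mp7g19240, 0.953), MpSYP13A (Mp7g13190, 0.953), Mp1g04600 (0.95), Mp2g01490 (0.947) and MpSIG1 (Mp7g15030, 0.944). Their fitted peaks lay between 11.4 and 13.0 h, and their fitted sizes, from 1.45 fold for MpSYP13A to 2.94 fold for MpEXL3, were all below that of MpKOL3. Peaks and high and low times like those of MpKOL3 follow from the pick by correlation. MpKOL3 was itself chosen for a wide rhythm, so the smaller sizes are no result either.

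MpSYP13A encodes a syntaxin, a membrane fusion protein, and MpSIG1 a sigma factor that guides transcription in plastids. MpSIG1 averaged 59.2 ± 6.303, 84.3 ± 6.82, 113 ± 8.05 and 102 ± 11.8 CPM from 24 to 42 h and 80.4 ± 4.06, 90.5 ± 3.16, 124 ± 19.7 and 111 ± 13.2 CPM from 48 to 66 h (SD, n = 3 each). Like MpKOL3, it had its lowest mean of each day at 24 and 48 h and its highest at 36 and 60 h. The next genes with a symbol were MpCYP74N1 (Mp3g21350, 0.94), of a P450 family that acts on fatty acid hydroperoxides, the peroxidase gene MpPOD144 (Mp7g05770, 0.925) and MpPTOXa (Mp3g12150, 0.91), for a plastid terminal oxidase. The lowest and highest means of MpCYP74N1 were 25.2 ± 1.01 CPM (24 h) and 66.8 ± 3.77 (36 h) on the first day, and 31.7 ± 3.39 (48 h) and 68.5 ± 12.1 (60 h) on the second. Deviations of single libraries from their time mean correlated with those of MpKOL3 at 0.869 for Mp1g04600, 0.845 for MpSYP13A and 0.379 for MpPOD144. Such deviations are part of the correlation by which these genes were picked, so the values only describe them.

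The least like genes with a symbol ran opposite to MpKOL3. They were MpDFR-like12 (Mp4g21180, -0.945), related to genes of dihydroflavonol reductases, MpEXL9 (Mp7g05020, -0.934), the ABC transporter gene MpABCC10 (Mp5g06790, -0.927) and MpPKS/CHS15 (Mp4g14200, -0.919), of the chalcone synthase family. MpDFR-like12 was highest with 529 ± 32.5 CPM (24 h) and 378 ± 38.5 CPM (48 h) and lowest with 196 ± 14.4 CPM (36 h) and 218 ± 13.8 CPM (60 h; SD, n = 3 each). Their peaks fell between 0.366 and 1.12 h, about 11 to 12 h from that of MpKOL3, which follows from the pick by lowest correlation.

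**Figure D5:**
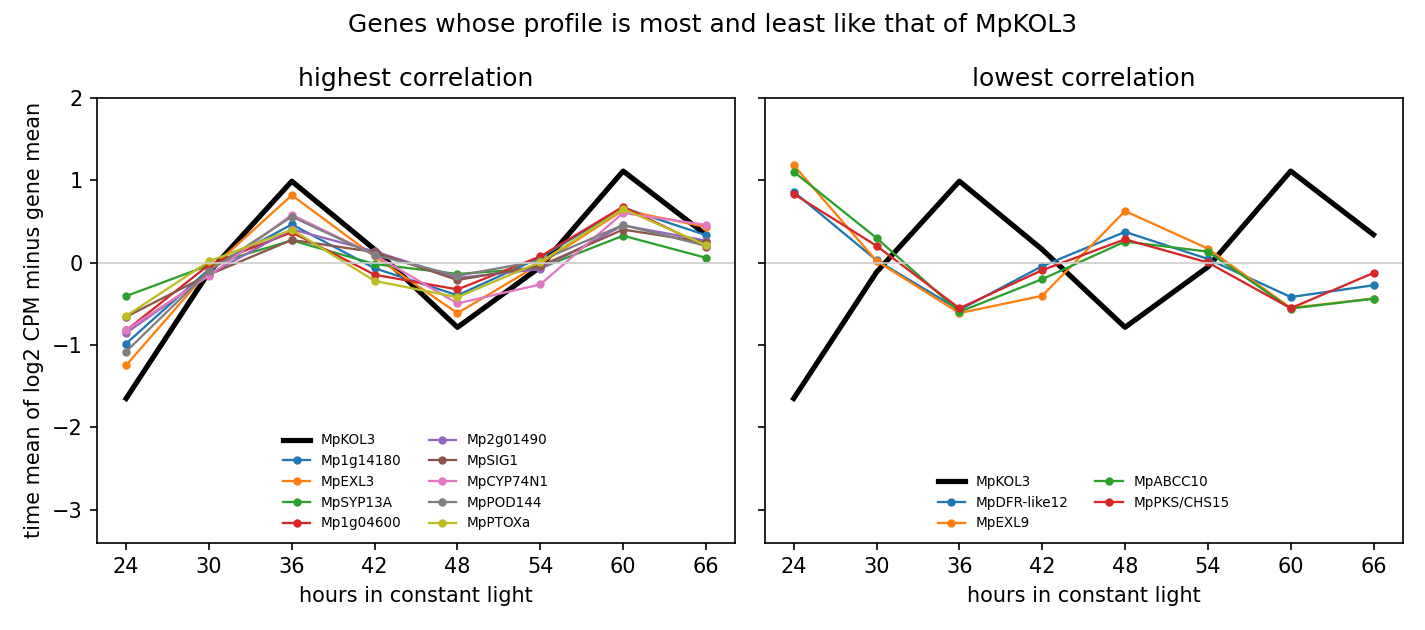
Time means of log2 CPM minus each gene's mean (y) by hours in constant light (x) for MpKOL3 (thick black) with the 9 genes named by highest correlation (left) and the 4 with a symbol and the lowest (right). The left-hand genes share its low points at 24 and 48 h and its high points at 36 and 60 h with a smaller swing, and the right-hand genes are mirrored. Both sets were picked by this likeness, so the shapes only describe them.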

How the data were processed

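The authors deposited whole-number counts per gene for 24 libraries, not normalized. Per the labels' protocols, RNA from a column kit with DNase treatment went into stranded TruSeq libraries with poly(A) selection. Which aligner and counter were run, on what genome build and with or without strand, is not given in the sources used here, so reads of neighbouring or similar genes may be shared. The labels do not say whether replicates were separate cultures, so p-values cover the spread between these libraries, which may be technical.

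Symbols were joined by the digits of the identifier from RefSeq (assembly MpTak2_v7.1) (17641 identifiers matched, 3091 with a symbol). The identifiers end in the mark of a different annotation version, so a renumbered gene would have a wrong symbol. The cyclases ahead of kaurene oxidase had no matching symbol and were not analysed here.

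In R 4.3.3 with edgeR 4.0.16, filterByExpr (grouped by time, minimum count 10) kept 14414 genes, and libraries were scaled by TMM (factors 0.932 to 1.10). Quasi-likelihood F-tests were fitted over all genes with Benjamini-Hochberg adjustment and a threshold of 0.05. One model had cosine and sine of 24 h and a linear term, the other 1 mean per time, from which contrasts were taken. SE of fitted size and peak come from the delta method. Intervals of contrasts use 16 residual degrees of freedom. CPM are counts over library size and TMM factor, and log2 CPM uses a prior count of 2. Alternatives were DESeq2 1.42.0, limma 3.58.1 (voom), other scaling, filters, drift terms and periods, a replicate block and leaving out libraries. Both fits were tried on counts simulated with plain 24 h cosines or plain steps between the days, so profiles of other shapes were not covered. Named genes were MpKOL3, the listed relatives, 3 identifiers on each side, the 6 highest correlations, the 6 highest and 4 lowest with a symbol, and the 3 widest called P450 genes. The gene, the lists and the alternatives were chosen with earlier results of these data known.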

Additional observations from a re-analysis of the deposited data

How the results depend on the processing

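The fitted size of MpKOL3 moved by less than 0.30 (log2) under all 35 alternatives. That margin was its SE times the square root of 3, not a spread measured between replicates. The values ran from 1.88 with a 22 h period to 2.26 with a day term. Leaving out single libraries gave MpKOL3 a size of 2.01 to 2.24, and leaving out the 3 libraries rich in MpVg01240 gave 2.08. Its peak was 12.0 to 12.5 h on leaving out single libraries; it moved to 14.9 h modulo 22 h and to 9.68 h modulo 26 h, since a peak is counted modulo the period fitted. The day difference of MpKOL3 was 0.247 to 0.376 on leaving out single libraries, with an adjusted p of 0.00154 to 0.0585, under 0.05 in 22 of 24 cases, and 0.342 (adjusted p = 0.0273) without the libraries rich in MpVg01240. The difference of 48 minus 24 h was 0.694 to 1.01 and was called in all 24 cases (adjusted p 0.00135 to 0.0481). The uncalled differences passed 0 when 1 library was left out: 54 minus 30 h ranged from -0.00806 to 0.18 (also -0.00194), 60 minus 36 h from -0.0164 to 0.266 and 66 minus 42 h from -0.0746 to 0.442. Counts of rhythmic relatives among 5 were 3 to 4 on leaving out single libraries, 2 with no drift term, 2 with a day term and 0 with both; those of P450 genes were 20 to 27, 15 with a 22 h period and 8 with both terms. Over all 14414 genes the calls were 3012 with no drift term, 4269 with a day term, 1009 with both and 1712 with a 22 h period, against 2700; the cause was not tested. The count of relatives called between the days was 3 in all 30 alternatives. Of the genes of isoprenoid supply, the rhythm calls of MpDXS1, MpDXR1 and MpMCT were lost with both drift terms (adjusted p = 0.247, 0.196 and 0.157), that of MpDXR1 also with no drift term (0.167) and that of MpMCT also with a 22 h period (0.191) and no filter (0.0542). Whether replicate numbers pair the libraries was described but not tested. Same-numbered libraries of different times had deviations that correlated at -0.501 to 0.448 (median 0.00188, over 0.1 in 30 of 84 pairs). For different numbers the range was -0.606 to 0.587 (median 0.0022, over 0.1 in 46 of 168 pairs). Of the 24 libraries, 9 correlated best with their own number. The 3 libraries rich in MpVg01240 were all replicate 3. With the replicate block the day difference of MpKOL3 was 0.296 (adjusted p = 0.0286), and rhythm calls over all genes were 2649 against 2700. The lowest count of MpKOL3 was 131.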
